A study of Mus musculus with 6 samples.

Results

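The genes described here were 10 members of the Notch pathway, taken by symbol from the 54752 genes of the count table. They were the receptors Notch1, Notch2, Notch3 and Notch4, the ligands Jag1 and Jag2, the targets Hes1, Hey1 and Heyl, and Nrarp, a target that restrains the pathway. The rule used symbols only, but the list was drawn up with earlier results of these data known, so the choice of members supports nothing. Which values led to the choice is not recorded, so fold changes and p-values of members, from a fit over all genes, describe each gene and are no independent evidence about the list. RNA-seq was performed on NIH/3T3, an established line of mouse embryonic fibroblasts, in 3 groups of 2 replicates treated for 72 h. The vehicle group received PBS. The DMSO group received TGF-β1 at 1 ng/ml with DMSO. The BI6727 group received TGF-β1 at 1 ng/ml with 5 μM BI6727, an inhibitor of the mitotic kinase PLK1. No library had DMSO or BI6727 without TGF-β1, so TGF-β1 and DMSO cannot be told apart in the comparison with vehicle. Nothing in the labels says that the replicates were separate cultures, so p-values measure the spread between these libraries, which may be technical.

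Notch receptors are membrane proteins that are cut after they bind a Jagged or Delta ligand on a neighbouring cell. The freed intracellular part enters the nucleus, joins the DNA-binding protein RBPJ and a Mastermind coactivator, and turns on HES and HEY genes, which encode transcriptional repressors. In fibroblasts the pathway is known for its exchange with TGF-β signaling during myofibroblast differentiation, and Jag1 and Hes1 are known targets of TGF-β in several cell types. Notch4 is best known from vascular endothelium.

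With TGF-β1 and DMSO, 3 of the 6 members tested were called higher than with vehicle, at a fold change above 2, beside 2.75% of all genes tested. Each of the 3 rose more than 10-fold. These were the ligand Jag1, the receptor Notch4 and the target Hes1, and all 3 were also past the threshold with BI6727. Notch1 and Notch2 were not called in any comparison. Between BI6727 and DMSO no member was called (0 of 6 tested), and Notch4 had the largest fall of the 6, from a mean of 52.4 to 22.5 normalized CPM. Normalized CPM are read counts brought to a common library size with TMM factors. Calls required a fold change above 2 with an edgeR quasi-likelihood p-value that stayed below 0.01 after Benjamini-Hochberg adjustment over all genes tested. SE stands for the standard error on the log2 scale.

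The promoters of Jag1 and Notch4 are shown because these were the called members with a RefSeq promoter window, from 250 bases before to 50 bases after the gene's start in GRCm38.p6. Windows were found for 7 of the 10 members, and Hes1, Hey1 and Heyl had none. The stretch of Jag1 lies at chr2:137116645-137116770 on the minus strand and that of Notch4 at chr17:34564045-34564267 on the plus strand. Both end just before the first annotated start of the gene. Capitals mark CAGAC, the letters of a SMAD binding element, read on both strands.
Jag1: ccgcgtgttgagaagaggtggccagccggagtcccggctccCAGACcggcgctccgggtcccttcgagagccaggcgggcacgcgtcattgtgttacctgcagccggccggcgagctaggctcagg
Notch4: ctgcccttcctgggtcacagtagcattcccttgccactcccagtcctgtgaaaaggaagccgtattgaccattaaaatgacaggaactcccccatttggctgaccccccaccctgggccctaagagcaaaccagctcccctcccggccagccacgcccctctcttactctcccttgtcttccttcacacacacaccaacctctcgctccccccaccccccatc

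A shorter stretch of Notch4 at chr17:34564281-34564307, across the RefSeq start, holds TGANTCA, the letters bound by AP-1, in capitals.
Notch4 at its start: ggacattgtgTGACTCAggaaacagct
Among the 7 members with a window, Notch4 was the only member that held TGANTCA, which reads the same on both strands and was present in 7.81% of the 32851 RefSeq windows. CAGAC was present in 49.6% of all windows and in those of Jag1, Notch3, Notch4 and Nrarp. TGGGAA, the core letters bound by RBPJ, was present in 25.6% of all windows on either strand and in none of the 7 members (0 of 7). The ratio of observed to expected CpG was 0.959 in the Jag1 window and 0.214 in the Notch4 window, above 91.6% and 30.9% of all windows. A match of letters is a description of the sequence and not a site.

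Library totals ranged from 18362378 to 24452153 counts, and 14604 genes were tested. The DMSO libraries stood apart from the rest. Their replicates differed with a chi-square of 53.4 for each degree of freedom, against 5.95 for vehicle and 5.15 for BI6727, and the log2 ratio of DMSO replicate 2 to replicate 1 changed by -0.16 for each doubling of exonic length. Notch1 and Notch2 are long genes, and results that rest on the DMSO group are given with and without its libraries where this changed a call or a direction. All 8 fibroblast markers were present, with a summed level of 7612 to 10040 normalized CPM in any library, but they did not move together. Pdgfra, a growth factor receptor of fibroblasts, was called 3.62-fold lower with DMSO and 3.44-fold lower with BI6727 than with vehicle, and Pdgfrb was called lower with BI6727, at a log2 fold change of -1.18, while the other 6 were not called in either comparison. Among the 7 endothelial markers, Kdr and Tie1 were at 0 in all 6 libraries, and the summed level was 1.36 to 2.77 normalized CPM with vehicle, 5.13 to 5.49 with DMSO and 4.79 to 4.86 with BI6727. The summed level of the 5 smooth muscle markers was 35.0 to 39.5 normalized CPM with vehicle, 72.4 to 89.7 with DMSO and 67.4 to 79.3 with BI6727. Smtn alone made up most of this sum and was called higher in both comparisons with vehicle, while Myh11 had at most 2 counts and Cnn1 went the other way, with 1.26 and 0.937 normalized CPM with vehicle, 0.286 and 0.0941 with DMSO and 0.441 and 0.572 with BI6727 (log2 fold change -2.50 and -1.09 against vehicle, not called). The 6 epithelial markers reached at most 1.27 normalized CPM in sum, with Krt5 and Krt18 at 0, and the 5 macrophage markers lay between 4.13 and 5.49, with Adgre1 at 0. In bulk RNA, more cells of a type and more RNA per cell cannot be told apart.

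Of the 10 members, 6 passed the filter on low counts and 4 did not. The 6 were Notch1, Notch2, Notch4, Jag1, Hes1 and Hey1. Under the filter of the study's methods, 10 CPM in more than 3 libraries, Notch1 and Hey1 would also drop out, leaving 4. Of these, Notch4, Jag1 and Hes1 had 2.33 to 6.20 normalized CPM with vehicle. They pass that filter only through the TGF-β1 libraries, so it favours a rise in them. Hey1 reached the minimum of 10 counts only in the TGF-β1 libraries, so the filter itself favoured a rise in it. Heyl and Nrarp had 0 counts in every library, which allows up to 3 counts or 0.123 to 0.165 normalized CPM. For Nrarp (chr2:25180758-25183339) this says little, because 79.4% of its exonic bases are shared with Gm38287 on the opposite strand, which also had 0 counts, and 531 bases belong to Nrarp alone. If the counting ignored strand, reads on the shared bases would not be assigned to either gene, and the strand setting is not given in the sources used here. Notch4, Jag1, Jag2, Hes1, Hey1 and Heyl share no exonic base with another gene (0%).

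**Figure D1:**
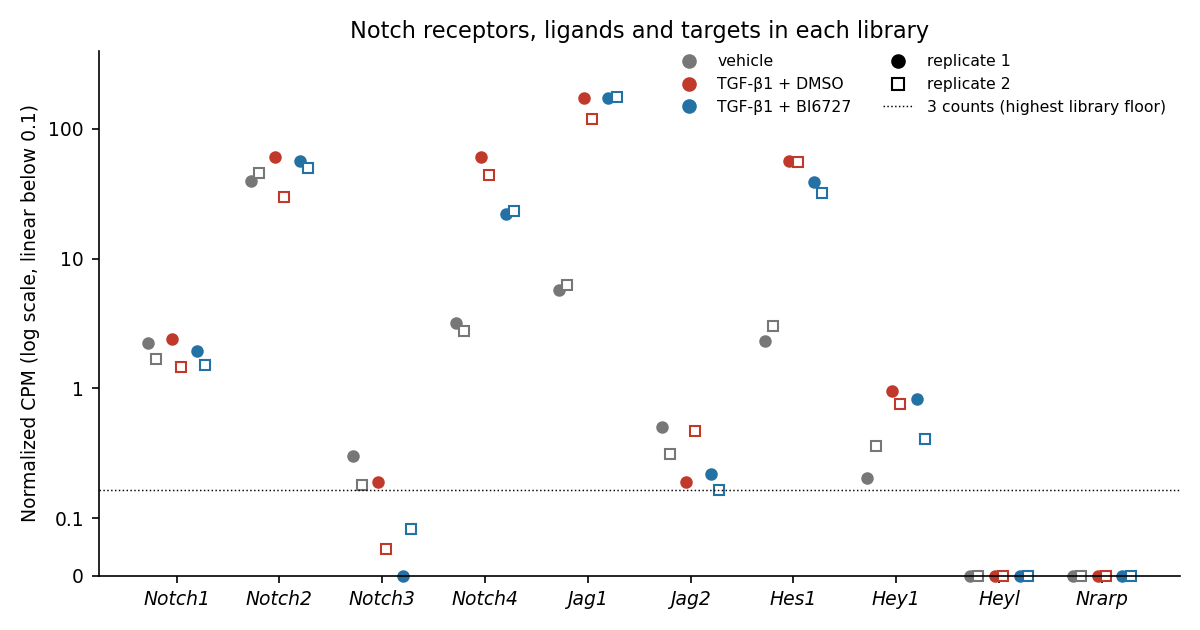
Normalized CPM (log axis, linear below 0.1) of each member in each of the 6 libraries. Filled circles are replicate 1 and open squares replicate 2, and the dotted line is the highest library floor of 3 counts, 0.165 normalized CPM. Notch4, Jag1 and Hes1 lie between 21.9 and 177 normalized CPM in the TGF-β1 libraries and at 6.20 or below with vehicle, while the vehicle and DMSO points of Notch1 and Notch2 overlap.

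Among the receptors, Notch4 (chr17:34564268-34588503, mm10) had 3.18 and 2.77 normalized CPM with vehicle, 61.0 and 43.9 with DMSO, and 21.9 and 23.1 with BI6727. The 3 groups did not overlap, and the BI6727 libraries lay between vehicle and DMSO. Against vehicle, Notch4 rose 17.6-fold with DMSO, a log2 fold change of 4.14 (SE 0.21, edgeR adjusted p = 1.12e-05). With BI6727 it rose 7.57-fold over vehicle, a log2 fold change of 2.92 (SE 0.21, edgeR adjusted p = 5.24e-05). Its log2 fold change over vehicle lay from 3.89 to 4.37 with DMSO and from 2.82 to 3.02 with BI6727 when each library was left out in turn, and it was called each time. The endothelial markers were in sum also lowest with vehicle. Cdh5, an endothelial cadherin, had 0 and 0.491 normalized CPM with vehicle, 3.05 and 1.69 with DMSO and 1.21 and 1.80 with BI6727. It was not called against vehicle with DMSO or BI6727 (edgeR adjusted p = 0.0262 and 0.0633), and neither were Pecam1 and Egfl7. The other endothelial markers, Kdr, Tek, Tie1 and Erg, had at most 8 counts in a library and were not tested. The part of the endothelial markers and Smtn in the rise of Notch4, Jag1 and Hes1 was not tested.

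Notch2 (chr3:98013527-98150361), a receptor of many mesenchymal cells, had 39.4 and 45.5 normalized CPM with vehicle, 60.2 and 29.6 with DMSO and 56.3 and 49.7 with BI6727. The DMSO libraries lay on either side of the vehicle libraries. Its log2 fold change over vehicle was 0.08 with DMSO (95% interval -0.55 to 0.71, edgeR adjusted p = 0.861), and it was -0.52 without DMSO replicate 1 and 0.52 without DMSO replicate 2. Against vehicle with BI6727 the log2 fold change was 0.32 (95% interval -0.31 to 0.95).

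Notch1 (chr2:26457903-26516663), the most studied receptor, was low. It had 2.22 and 1.70 normalized CPM with vehicle, 2.39 and 1.46 with DMSO and 1.93 and 1.51 with BI6727, and all groups overlapped. Its log2 fold change over vehicle was -0.02 with DMSO (95% interval -0.89 to 0.84, edgeR adjusted p = 0.969). The interval holds changes in either direction, so a change within it is not excluded. Other genes overlap 9.76% of its exonic bases. Notch3 (chr17:32120820-32166880), known from vascular smooth muscle, had 0 to 6 counts in a library and was not tested.

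Set per length, as normalized CPM per kb of exon, Notch2 made up 86.1% and 89.7% of the summed receptor level in the vehicle libraries and Notch4 9.30% and 7.30%. In the DMSO libraries Notch4 made up 56.7% and 65.6% and Notch2 41.9% and 33.1%. With BI6727 Notch2 was again ahead, at 64.7% and 60.7%, and Notch4 made up 33.7% and 37.7%. Thus Notch4 was the most abundant receptor RNA in both DMSO libraries and in no other library. The summed receptor level was 4.25 and 4.70 normalized CPM per kb with vehicle, 13.3 and 8.30 with DMSO and 8.08 and 7.59 with BI6727.

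**Figure D2:**
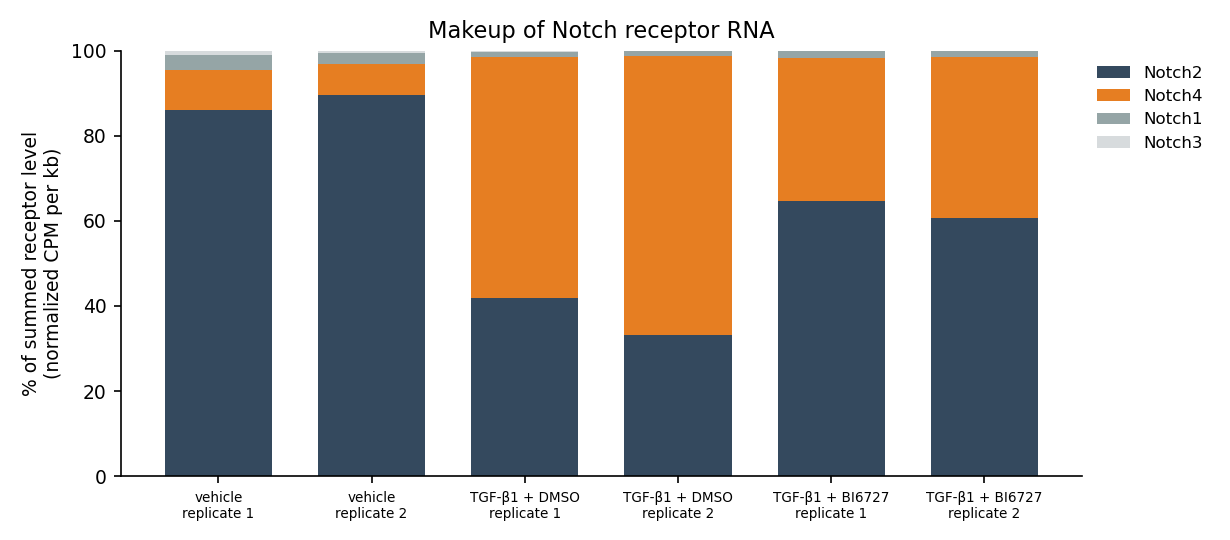
Share of each receptor in the summed level of Notch1 to Notch4, in percent of normalized CPM per kb of exon, in each of the 6 libraries. Notch2 takes 86.1% and 89.7% of the bars with vehicle, 41.9% and 33.1% with DMSO and 64.7% and 60.7% with BI6727, and Notch4 takes most of the rest.

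Among the ligands, Jag1 (chr2:137081456-137116644) had 5.76 and 6.20 normalized CPM with vehicle, 172 and 118 with DMSO and 173 and 177 with BI6727. Both treated groups lay far above vehicle, and the BI6727 libraries were level with or above DMSO replicate 1. Jag1 rose 24.2-fold over vehicle with DMSO, the largest rise of any member (log2 fold change 4.60, SE 0.20, edgeR adjusted p = 5.27e-06). With BI6727 it rose 29.2-fold over vehicle (log2 fold change 4.87, SE 0.20, edgeR adjusted p = 4.85e-06). The log2 fold change with DMSO lay from 4.31 to 4.85 when each library was left out, and it was called each time. Jag2 (chr12:112907819-112929776), the other Jagged ligand, had 4 to 10 counts in a library and was not tested.

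Among the targets, Hes1 (chr16:30064384-30067796), a repressor of the HES family, had 2.33 and 3.03 normalized CPM with vehicle, 56.4 and 55.4 with DMSO and 39.2 and 32.2 with BI6727. The 3 groups did not overlap, and here the DMSO replicates were close to each other. Hes1 rose 20.7-fold over vehicle with DMSO (log2 fold change 4.37, SE 0.19, edgeR adjusted p = 5.26e-06). With BI6727 it rose 13.2-fold over vehicle (log2 fold change 3.72, SE 0.18, edgeR adjusted p = 9.16e-06). Both calls of Hes1 held with each library left out.

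Hey1 (chr3:8663359-8667256), a repressor of the HEY family, had 0.202 and 0.357 normalized CPM with vehicle, 0.955 and 0.753 with DMSO and 0.826 and 0.409 with BI6727. These values rest on 4 to 20 counts in a library. Its log2 fold change over vehicle with DMSO was 1.57 (95% interval 0.16 to 2.99, edgeR adjusted p = 0.107), and with BI6727 it was 1.08 (95% interval -0.39 to 2.54). Heyl (chr4:123233556-123249875) was at 0 counts in all libraries.

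Against vehicle, all called members were higher. With BI6727 and TGF-β1 against vehicle 3 were called higher, beside 2.51% of all genes tested, and these were the same 3 as with DMSO. In neither comparison was a member called lower (0 of 6 with edgeR or DESeq2), where 3.23% and 3.71% of genes were. At an unadjusted p-value below 0.05 in edgeR, 0 members were lower in either comparison, beside 18% and 18.7% of all genes. With DMSO, 4 of the 6 members had both libraries above both vehicle libraries, as did 28.7% of all genes tested, and 0 had both below, as did 31.8%. With BI6727 these numbers were 5 and 0, beside 35.8% of all genes in each direction. Both counts include Hey1, whose rise the filter favoured, and describe the members without supporting anything about the list. These comparisons share the vehicle libraries.

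**Figure D3:**
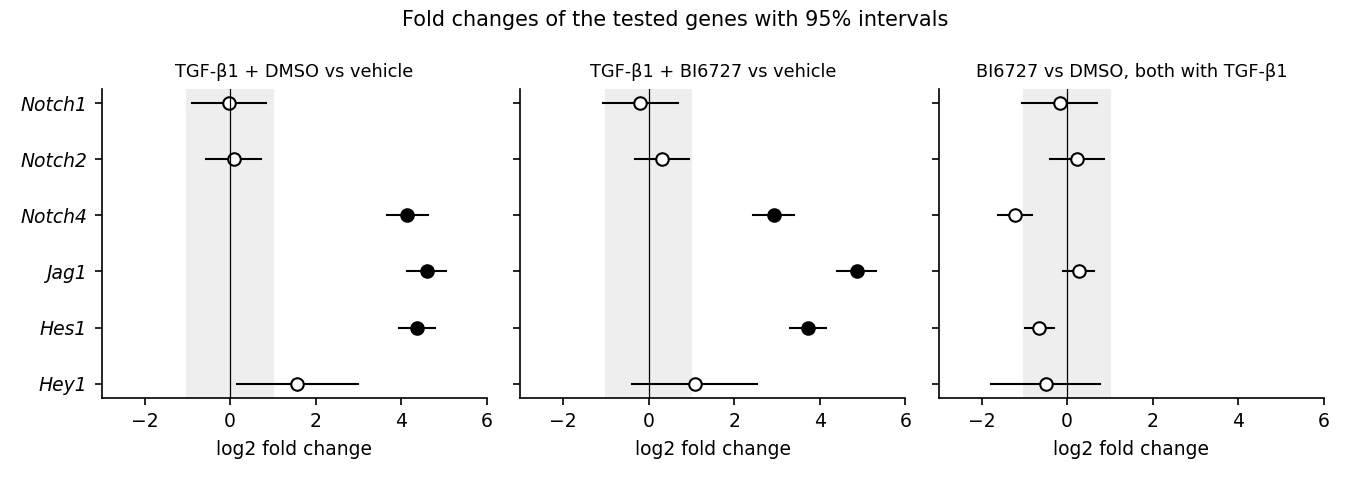
Log2 fold change of the 6 tested members in 3 comparisons, with 95% intervals from edgeR's quasi-likelihood fit. Filled points passed the threshold, and grey marks fold changes below 2. Notch4, Jag1 and Hes1 lie from 2.92 to 4.87 in both comparisons with vehicle, and in the comparison of BI6727 with DMSO all points are open, with Notch4 at -1.22.

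The order of the members by level per length differed between groups. With vehicle the order was Notch2 at 3.94 ± 0.396 normalized CPM per kb (SD, n = 2), Hes1 at 1.32 ± 0.246, Jag1 at 1.03 ± 0.053, Notch4 at 0.369 ± 0.037 and Notch1 at 0.138 ± 0.026. The replicate ranges of these neighbours did not overlap. With DMSO, Hes1 led at 27.4 ± 0.334 normalized CPM per kb and overlapped with Jag1 at 24.9 ± 6.49. Notch4 followed at 6.51 ± 1.5 and overlapped with Notch2 at 4.17 ± 2.01. With BI6727, Jag1 was first at 30.0 ± 0.437 normalized CPM per kb, ahead of Hes1 at 17.5 ± 2.44, Notch2 at 4.92 ± 0.435 and Notch4 at 2.79 ± 0.103, and these neighbours did not overlap. Hey1, Jag2 and Notch3 stayed below 0.293 normalized CPM per kb in every library.

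To see what the PLK1 inhibitor changed in the presence of TGF-β1, BI6727 was compared with DMSO. No member was called by edgeR's quasi-likelihood test in either direction (0 of 6), and neither was any gene of the table (0% of 14604). At an unadjusted p-value below 0.05, 2 members were lower and 0 higher, where 4.57% of all genes were lower. These 2 were Notch4 and Hes1. At an adjusted p-value below 0.05 with no fold minimum, 0 members were called, beside 0.0137% of all genes lower and 0% higher. Both BI6727 libraries lay below both DMSO libraries in 2 members, Notch4 and Hes1, as in 17.7% of all genes, and above them in 1 member, Jag1, as in 17.4%.

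Notch4 was 2.33-fold lower with BI6727 than with DMSO, a log2 fold change of -1.22 (95% interval -1.62 to -0.82, edgeR adjusted p = 0.119). By p-value Notch4 ranked 11 of 14604 genes, and by the size of its fall 213. DESeq2 called it (log2 fold change -1.23, adjusted p = 2.98e-06), and so did edgeR once the dependence of each library on gene length had been removed (-1.24, edgeR adjusted p = 0.00339). The adjusted p-value was 0.663 with only the 2 groups compared, and over the 8 alternatives it ranged from 2.98e-06 to that value. Without DMSO replicate 2 the log2 fold change was -1.45. Without DMSO replicate 1 it was -0.96, under the fold threshold. With 1 DMSO library left, the spread came from the vehicle and BI6727 replicates, which differed less than those of DMSO. With either BI6727 library left out the adjusted p-value was 1 in the edgeR fit.

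Hes1 was 1.57-fold lower with BI6727 than with DMSO, a log2 fold change of -0.65 (95% interval -0.99 to -0.31, edgeR adjusted p = 0.531). With each library left out the log2 fold change lay from -0.80 to -0.51, always in the same direction. It was not called under any of the 8 alternatives, where the smallest adjusted p-value was 0.0901 with DESeq2. Without DMSO replicate 1 or 2 the fold change stayed below 2, so Hes1 was not called.

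Jag1 had a log2 fold change of 0.27 between BI6727 and DMSO (95% interval -0.11 to 0.64, edgeR adjusted p = 0.769). It was 0.01 without DMSO replicate 2 and 0.56 without DMSO replicate 1, so its size depended on which DMSO library was used. Notch2, at 0.24 (95% interval -0.39 to 0.87), lay from -0.20 to 0.84 with each library left out, and was at -0.20 without DMSO replicate 2. Notch1 was at -0.17 and Hey1 at -0.50, with intervals from -1.04 to 0.71 and from -1.78 to 0.78.

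**Figure D4:**
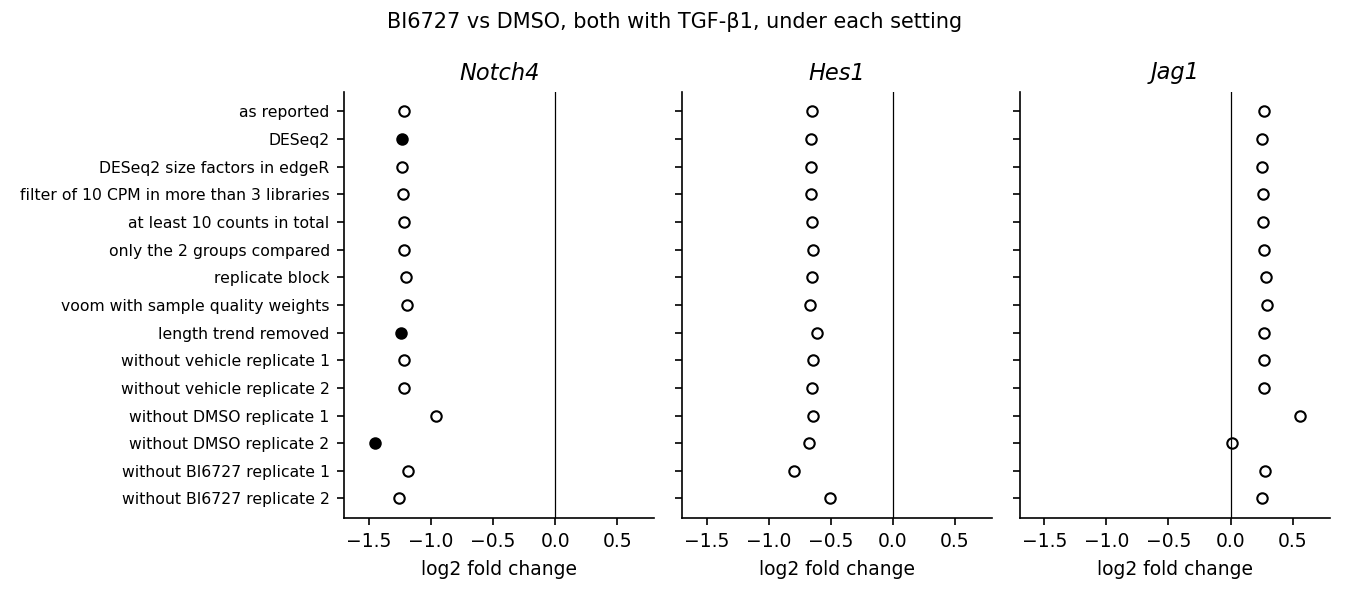
Log2 fold change of Notch4, Hes1 and Jag1 for BI6727 against DMSO under each setting of the analysis. Filled points passed the threshold. Notch4 is negative throughout, from -1.45 to -0.96, and Hes1 from -0.80 to -0.51, while Jag1 lies from 0.01 to 0.56.

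The other genes of the pathway were followed with a list of 50 genes grouped by role, of which 40 passed the filter. Against vehicle, 2 were called higher and 2 lower with DMSO, and 36 were not called, beside 2.75% and 3.23% of all genes tested. The median log2 fold change of the 40 genes was -0.06, beside -0.01 for all genes tested. The genes called lower were Dlk1 and Rbpj, and those called higher were Furin and Dtx4. With BI6727 against vehicle the same genes were called with Kat2b as a further lower gene, 2 higher and 3 lower, beside 2.51% and 3.71% of all genes tested. Between BI6727 and DMSO, 0 of the 40 were called by edgeR or by DESeq2, which called 0 and 15 of all 14604 genes, and 0 had an unadjusted p-value below 0.05 in edgeR, where 4.57% of all genes were lower. Spen and Ep300, named after their values were seen, depended on which DMSO library was used. Spen had 23.4 and 8.70 normalized CPM with DMSO and 19.6 and 15.8 with BI6727. Ep300 had 58.8 and 25.1 with DMSO and 44.9 and 56.5 with BI6727. Both are long, at 14089 and 14273 exonic bases, and DMSO replicate 2 was lower in long genes. The part of length in these values was not tested. At an adjusted p-value below 0.05 with no fold minimum, 2 pathway genes were higher and 6 lower with DMSO than with vehicle, beside 9.87% and 11% of all genes. With BI6727 5 were higher and 7 lower, beside 9.98% and 12%.

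Rbpj, the DNA-binding protein through which all receptors act, had 56.8 and 60.3 normalized CPM with vehicle, 26.1 and 23.6 with DMSO and 26.7 and 24.4 with BI6727. Both treated groups lay below vehicle. Rbpj fell by 1.24 on the log2 scale with DMSO (SE 0.13, edgeR adjusted p = 0.00032) and fell by 1.20 with BI6727 (edgeR adjusted p = 0.000338). Without BI6727 replicate 2 the second call was lost (edgeR adjusted p = 0.0115). Its value is uncertain to the extent that 10.6% of its 50-base windows, the length of a read, also occur in transcripts of other genes. The coactivators Maml1, Maml2, Maml3, Snw1, Ep300 and Kat2b were not called with DMSO. The DMSO libraries of Ep300, at 58.8 and 25.1 normalized CPM, lay on either side of vehicle, at 54.0 and 50.8. Kat2b, a histone acetyltransferase, had 40.6 and 35.2 normalized CPM with vehicle, 26.5 and 19.8 with DMSO and 18.8 and 17.99 with BI6727. It was called lower with BI6727 against vehicle (log2 fold change -1.04, edgeR adjusted p = 0.00318), had -0.71 with DMSO (edgeR adjusted p = 0.0184), and lost its call without either vehicle or either BI6727 library and with the length trend removed.

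Dlk1, a Delta-like protein without the domain that activates Notch, had 1056 and 977 normalized CPM with vehicle, 279 and 316 with DMSO and 274 and 292 with BI6727. Dlk1 fell by 1.77 on the log2 scale with DMSO (SE 0.12, edgeR adjusted p = 3.53e-05) and fell by 1.84 with BI6727 (edgeR adjusted p = 2.84e-05), and was called with each library left out. The Delta ligands Dll1, Dll3 and Dll4 had at most 7 counts in a library, so that Jag1 was the only classical ligand above 10 counts in a library.

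Furin, the protease that cuts Notch receptors on their way to the membrane, had 141 and 134 normalized CPM with vehicle, 347 and 257 with DMSO and 284 and 279 with BI6727. It rose by 1.13 on the log2 scale with DMSO (SE 0.14, edgeR adjusted p = 0.00107) and by 1.03 with BI6727 (edgeR adjusted p = 0.00162). Dtx4, a ubiquitin ligase of the Deltex family that acts on Notch, had 16.7 and 17.1 normalized CPM with vehicle, 43.5 and 34.9 with DMSO and 36.6 and 41.7 with BI6727. It rose by 1.21 on the log2 scale with DMSO and by 1.21 with BI6727 (edgeR adjusted p = 0.000943 and 0.000889). Without either vehicle library the calls of Furin and Dtx4 were lost in both comparisons, with edgeR adjusted p-values of 0.0202 to 0.0377, and with BI6727 they were also lost without BI6727 replicate 2. Furin was not called with BI6727 without BI6727 replicate 1 either, and it was under the fold threshold with DMSO without DMSO replicate 1, at 0.90. Hes7, an oscillating gene of the segmentation clock, had 5 and 0 counts with vehicle and 8 to 25 with TGF-β1. Its log2 fold change with DMSO, 2.77, was not called (edgeR adjusted p = 0.0743). Hes7 reached the minimum of 10 counts only in TGF-β1 libraries, so the filter itself favoured a rise in it, as in Hey1.

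Adam10, Adam17, Psen2, Ncstn, Aph1a, Aph1b, Aph1c and Psenen act in the cuts that free the intracellular part of the receptor, as proteases or as subunits. None of them was called in any of the 3 comparisons (0 of 8 by edgeR). Aph1b and Aph1c are close paralogs whose reads the counting could have split. Adam17, a sheddase, came nearest with DMSO, at 92.2 ± 1.22 normalized CPM with vehicle and 52.2 ± 9.05 with DMSO (SD, n = 2). Its log2 fold change was -0.82 (edgeR adjusted p = 0.0063), which is under a fold of 2. It was called lower with DMSO when DMSO replicate 1 was left out.

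**Figure D5:**
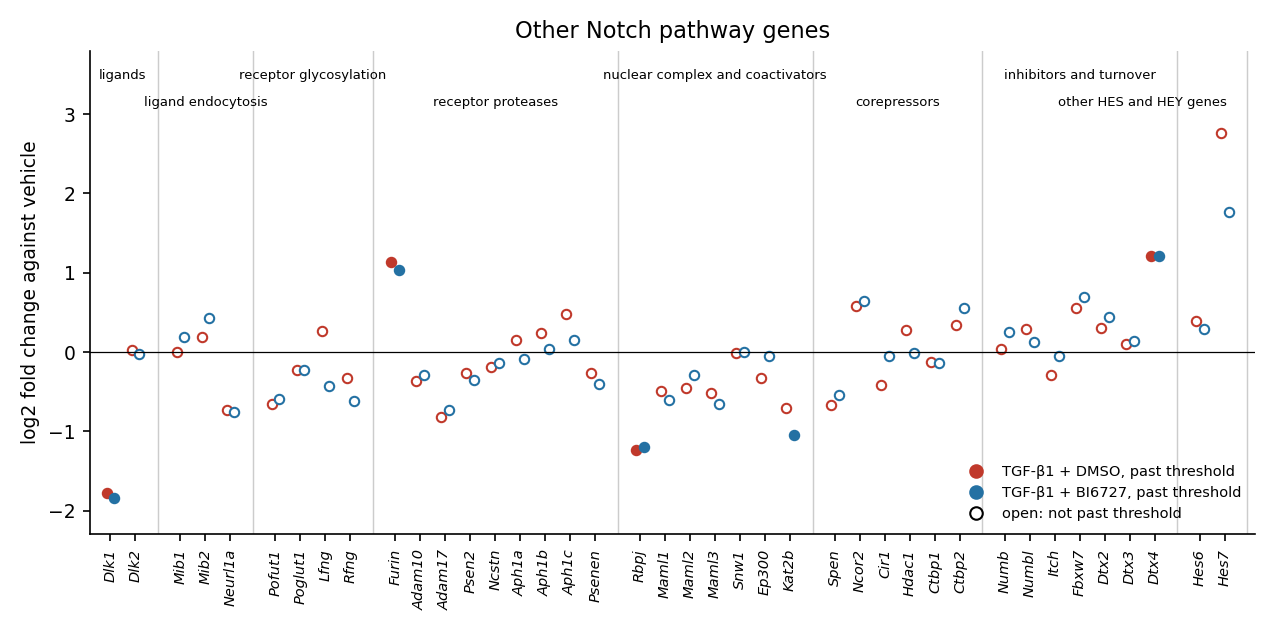
Log2 fold change against vehicle of the 40 tested pathway genes outside the 10 members, grouped by role, with DMSO in red and BI6727 in blue. Filled points passed the threshold. Dlk1 and Rbpj lie below -1 and Furin and Dtx4 above 1 in both colors, Kat2b is filled with BI6727 alone, and Hes7 is the highest open point at 2.77.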

How the data were processed

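RNA-seq of 6 NIH/3T3 libraries gave read counts per gene. The authors mapped single-end reads to mm10 with Subjunc and counted them with featureCounts (Subread 1.6.4 per the labels) on Gencode M20 genes, and deposited the counts without normalization. The strand setting is not given in the sources used here. Symbols were matched by Ensembl identifier for 54723 of 54752 genes, and groups were taken from the sample titles.

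The quasi-likelihood test of edgeR 4.0.16 (R 4.3.3) was run on the counts of all 6 libraries, scaled by TMM, with no covariate and 3 residual degrees of freedom. Genes were kept with filterByExpr (minimum count 10) and not with the filter of the study, which drops a gene that only 2 libraries express. Standard errors were the log2 fold change divided by the square root of F. Exact permutation of 2 against 2 libraries cannot go below p = 0.333. Alternatives were DESeq2 1.42.0, its size factors, other filters and thresholds, a replicate block, a fit on only 2 groups, limma 3.58.1 voom with sample quality weights, length-trend offsets (lowess span 0.3) and each library left out. Intervals cover the spread between libraries, and floors of 3 counts cover counting error only. A lone replicate was assumed to vary like the other groups.

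Members, gene lists and tests were chosen with earlier results of these data known. Named were all members, pathway genes called in any comparison, the 5 pathway genes with the largest change with DMSO, and the 3 genes most like the most changed member. Pathway lists were written by hand by role. A gene of the pathway list is not reported here.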

Additional observations from a re-analysis of the deposited data

How the results depend on the processing

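Over the 14 other settings, the members' log2 fold changes kept their direction in 235 of 245 values. The 10 that reversed were of Notch1 and Notch2. For TGF-β1 with DMSO against vehicle, Notch2 was at -0.00851 with voom weights and Notch1 at 0.18 with the length trend removed. With each library left out, Notch1 lay from -0.42 to 0.30 for DMSO against vehicle, -0.38 to 0.013 for BI6727 against vehicle and -0.49 to 0.23 between BI6727 and DMSO, and Notch2 from -0.52 to 0.52 for DMSO against vehicle and -0.20 to 0.84 between the TGF-β1 groups. Between BI6727 and DMSO, Dtx4 was at 0.012 with voom weights and 0.00555 with the length trend removed, Rbpj at -0.083 with the length trend removed, and with each library left out Dtx4 lay from -0.16 to 0.16, Rbpj from -0.045 to 0.11, Furin from -0.31 to 0.13 and Dlk1 from -0.16 to 0.012. The cause was not tested. With each library left out, 3 members were called against vehicle every time, with DMSO and with BI6727.

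The count of genes called with DMSO against vehicle was 874, or 485 with the filter of the study (478 of them shared) and 3052 at an adjusted p below 0.05 with no fold minimum. With BI6727 against vehicle it was 908, 505 and 3216. Between BI6727 and DMSO it was 0, 15 with DESeq2, 2 with a minimum total of 10 counts, 2 at an adjusted p below 0.05, 2 with voom weights and 19 with the length trend removed. Members called there rose from 0 to 1, Notch4, with DESeq2 and with the length trend removed. Pathway genes called at an adjusted p below 0.05 with no fold minimum numbered 8 with DMSO and 12 with BI6727, against 4 and 5. With each library left out, the genes called ranged from 310 to 1435, 0 to 98 and 355 to 1204 for DMSO against vehicle, BI6727 against DMSO and BI6727 against vehicle, the members from 3 to 3, 0 to 1 and 3 to 3, and the pathway genes from 2 to 6, 0 to 2 and 1 to 5.

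Same-numbered replicates did not deviate together across genes (r = -0.037 for vehicle and DMSO, -0.059 for DMSO and BI6727, -0.00787 for vehicle and BI6727), so the numbers do not pair the samples. With the replicate block 810, 0 and 804 genes, 3, 0 and 3 members and 4, 0 and 5 pathway genes were called, and no call of a named gene changed. With 2 libraries a group, low members such as Hey1, Jag2 and Notch3 could not be compared closely.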

Other observations

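Across the 6 libraries, the genes whose log2 CPM were most like those of Jag1, the member with the largest change, were Pim1 (Pearson r = 0.9993), Jam2 (0.9992) and Skil (0.9989), among 14603 genes compared. Pim1, a serine/threonine kinase, had 9.05 and 9.59 normalized CPM with vehicle, 27.7 and 25.2 with DMSO and 27.0 and 28.2 with BI6727. Skil, a SMAD-binding corepressor that TGF-β induces, had 22.2 and 20.7 with vehicle, 124 and 96.5 with DMSO and 115 and 122 with BI6727. Jam2, a junctional adhesion molecule, had 5.41 and 5.44 with vehicle, 36.3 and 29.4 with DMSO and 33.0 and 36.4 with BI6727. In these genes, as in Jag1, DMSO replicate 2 was the lowest of the 4 TGF-β1 libraries. They were picked for following Jag1 over these same libraries, so the shared order is no separate observation. Of the 6 points, those with vehicle lay far below those of the 4 TGF-β1 libraries for Jag1, so genes with this contrast follow it closely. In all, 745 genes had r above 0.95 with Jag1. Of the exonic bases of Pim1, 14.5% are shared with Gm26885 on the opposite strand.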
